A study of Rattus norvegicus and Bos taurus with 12 samples.

Results

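Interferon response genes are the ligands, receptors, sensors, transcription factors and antiviral effectors by which a cell detects foreign nucleic acid or microbial products and answers to interferon. Genes were taken by symbol from both deposited tables, using the symbol stems of the interferons, the interferon-induced antiviral families, the interferon regulatory factors (IRF), the JAK kinases and STAT factors, the guanylate-binding proteins (GBP) and IRGM GTPases, the suppressors of cytokine signaling (SOCS) and the Toll-like receptors (TLR). The rule found 43 genes among the 7052 genes listed for adult rat ventricular myocytes (ARVM) and 8 among the 2115 listed for bovine cardiac fibroblasts (Cfib). RefSeq names 117 rat protein-coding genes that match the same stems, and 74 of them, Irf9, Ifit1, Bst2 and the interferon alpha receptor chains Ifnar1 and Ifnar2 included, were not analysed here.

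The study asked how fibroblasts from the pressure-overloaded right ventricle act on heart muscle cells. Cfib were low-passage cultures from the right ventricle of neonatal calves, either control calves kept at ambient altitude (CO) or calves made pulmonary hypertensive by hypobaric hypoxia (PH). ARVM were isolated by collagenase digestion from Sprague Dawley rats and were sequenced either freshly isolated or after 7 days in serum-free medium conditioned by PH Cfib (PH-CM). Each of the 4 groups held 3 libraries, which keep the names of their labels: freshly isolated ARVM con4, con5 and con6, PH-CM ARVM ha2, ha209 and ha211, CO Cfib 1 to 3 and PH Cfib 1 to 3. In GEO the groups are titled control and high altitude, with a treatment given as serum from cows of low or high altitude, whereas the description above follows the study's methods. No ARVM cultured without PH-CM were analysed here, so the effects of PH-CM and of 7 days in culture cannot be told apart. The Cfib were grown from animals that differed in exposure, so by that description the contrast is one of donor calves and not of a treatment given in the dish.

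Type I interferons are secreted when TLRs at the cell surface and in endosomes, or cytosolic RNA sensors such as the product of Ifih1, detect their ligands. They bind a receptor that signals through JAK kinases to STAT factors, and the STAT and IRF proteins then enter the nucleus and switch on antiviral genes, while SOCS proteins and the protease encoded by Usp18 turn the pathway down. In the heart the pathway is known from viral myocarditis and from the response to infarction, and cardiomyocytes, fibroblasts and resident macrophages can all express parts of it.

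Both tables hold only genes that the authors had selected for a difference between the groups, which decides what counts of members can say. Every gene in either table had 3 libraries of a group above the 3 of the other, 100% of the ARVM genes and 100% of the Cfib genes, and so had every member. The listed genes of the 6 ARVM libraries held 12122463 to 18842171 reads, recovered as whole reads from the deposited size-factor-normalized counts. The depth of the Cfib libraries is unknown, and their values are scaled by gene length and library. Correlations between libraries of a group (Pearson, across listed genes) were 0.974 to 0.989 in ARVM and 0.976 to 0.998 in Cfib, and no libraries were identical. Values of ARVM genes below are normalized counts, which are not divided by gene length, so their levels are compared between libraries and not between genes. The log2 fold changes were fitted with limma to log2(value + 1), a scale that understates the change of low genes, and p-values were adjusted by the Benjamini-Hochberg method over all genes of the table, with a threshold of 0.05 for a call.

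In PH-CM ARVM 30 of the 43 interferon response genes were higher than in freshly isolated ARVM and 13 were lower. The test called 29 of them higher and 13 lower, and Oas1i was not called. Among all listed ARVM genes, 53.9% were called higher and 43.7% lower. The median log2 fold change of the members was 1.09, with a range from -3.57 to 4.68, against a median of 0.37 for all listed genes. The response was uneven by role. All 7 TLRs and most antiviral effectors were higher, the JAK and STAT genes moved both ways around 0, and 3 of 4 SOCS genes were lower.

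**Figure D1:**
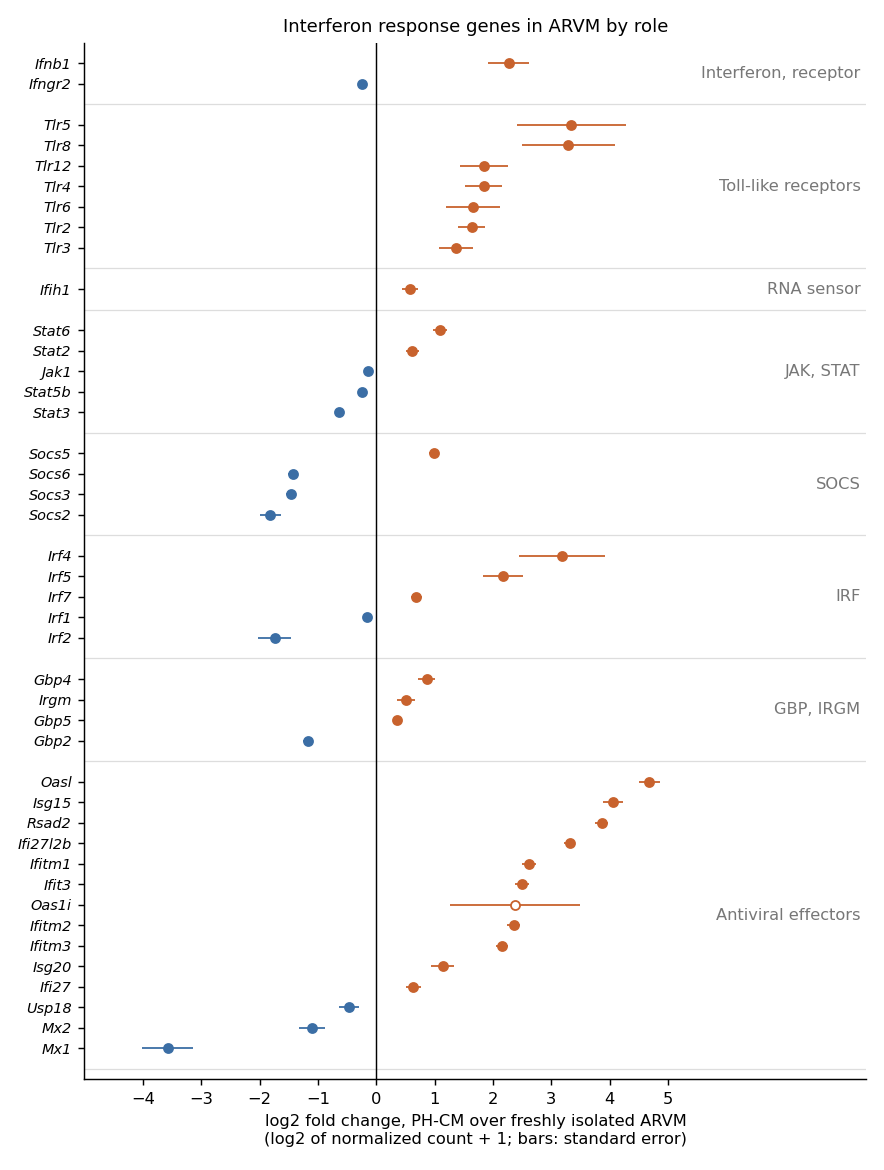
Log2 fold change (log2 of normalized count + 1) of the interferon response genes reported here in PH-CM over freshly isolated ARVM, grouped by role, with bars for the standard error of the limma fit (3 libraries per group) and an open circle for Oas1i, which was not called. The antiviral effectors span the widest range, from -3.57 for Mx1 to 4.68 for Oasl, all 7 TLRs lie above 0, and 3 of the 4 SOCS genes lie below it.

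The marker genes of cardiomyocytes and of other cell types moved strongly between the same libraries. The listed cardiomyocyte markers, 11 of the 12 looked for, were all lower in PH-CM ARVM, and their summed normalized count was 1563110 to 1577360 in freshly isolated ARVM and 155039 to 191491 in PH-CM ARVM. All 12 fibroblast markers were higher, from a sum of 1882 to 2453 to a sum of 100175 to 145044. Of the 18 macrophage and leukocyte markers, 15 were listed and all were higher, with sums of 315 to 459 and 9197 to 13863, and 10 of the 11 listed endothelial markers were lower, with sums of 13539 to 16307 and 5608 to 6443. None of these listed markers was at 0 in every library of a group. The libraries are bulk RNA, so that a changed number of cells of a type and changed expression per cell cannot be told apart. The study describes PH-CM ARVM as dedifferentiated myocytes and reports periostin, encoded by the fibroblast marker Postn, in them. The part of other cells in the results on interferon response genes was not tested.

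Of the ligands, Ifnb1 (interferon beta, the type I interferon that most nucleated cells can make) was the only interferon gene listed. It had 0 reads in each freshly isolated library and 4 to 5 reads in each PH-CM library, 14 reads in all. Its PH-CM mean was 3.26-fold above a floor of 3 reads over the freshly isolated group, with no allowance for counting error in the PH-CM reads. The gene was called in the limma fit (adjusted p = 0.000524) but not by DESeq2 on the recovered reads (adjusted p = 0.0822, with a range of 4.03e-05 to 0.0822 over all alternatives), so a rise rests on very few reads.

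Ifngr2, the signal-transducing chain of the interferon gamma receptor, was the only receptor gene listed. Its normalized count was 1478, 1622 and 1541 in freshly isolated ARVM con4, con5 and con6 and 1308, 1328 and 1302 in PH-CM ARVM ha2, ha209 and ha211. The PH-CM libraries lay close together, and their mean was 1.18-fold below that of the freshly isolated libraries (log2 fold change -0.24, SE 0.06, adjusted p = 0.00659).

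Tlr5, the receptor for bacterial flagellin, and Tlr8, an endosomal receptor for single-stranded RNA, were nearly absent from freshly isolated ARVM. The normalized count of Tlr5 was 0, 12.9 and 11.4 in freshly isolated ARVM con4, con5 and con6 and 59.7, 55.2 and 51.6 in PH-CM ARVM ha2, ha209 and ha211 (log2 fold change 3.35, SE 0.94, adjusted p = 0.0096). For Tlr8 it was 0, 8.57 and 5.17 in the former and 29.5, 36.2 and 47.4 in the latter (log2 fold change 3.29, SE 0.80, adjusted p = 0.00484). Library con4, the shallowest of the freshly isolated group, was at 0 for both genes, and without it the log2 fold changes were 2.11 and 2.31, both still called.

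Tlr4, which detects lipopolysaccharide, had normalized counts of 30.1, 45 and 34.1 in freshly isolated ARVM and 137, 90.6 and 181 in PH-CM ARVM, and its mean was 3.74-fold higher (log2 fold change 1.84, SE 0.32, adjusted p = 0.000971). Tlr2 and Tlr6 pair on the cell surface to bind lipopeptides. Tlr2 was at 277, 204 and 177 in freshly isolated and 656, 519 and 881 in PH-CM libraries (log2 fold change 1.63, SE 0.23, adjusted p = 0.000316). Tlr6 was at 26.9, 7.5 and 12.4 in freshly isolated and 40.1, 44.9 and 52.5 in PH-CM libraries (log2 fold change 1.66, SE 0.46, adjusted p = 0.00899). PH-CM library ha211 was the highest and PH-CM library ha209 the lowest or next to lowest for these 3 genes. No freshly isolated library reached a PH-CM library, but the groups were apart for 100% of listed ARVM genes. Tlr3, an endosomal receptor for double-stranded RNA, was at 31 to 57 in freshly isolated and 92.3 to 128 in PH-CM libraries (log2 fold change 1.37, adjusted p = 0.00288). Tlr12, a rodent receptor for protozoan profilin, had 0 reads in the freshly isolated group and 2 to 5 reads per PH-CM library. Its PH-CM mean was 2.35-fold above a floor of 3 reads over the freshly isolated group. DESeq2 did not call Tlr12 (adjusted p = 0.172, with 0.000176 to 0.172 over the alternatives).

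Macrophages and other leukocytes carry TLRs, and the summed counts of the TLRs stand beside the leukocyte markers for that reason. The 7 TLRs summed to 391, 320.3 and 271 in freshly isolated ARVM con4, con5 and con6 and to 1038, 843 and 1344 in PH-CM ARVM ha2, ha209 and ha211. The 15 listed leukocyte markers summed to 375, 315 and 459 and to 10941, 9197 and 13863. Among the PH-CM libraries the order was the same for both sums, with library ha211 highest and library ha209 lowest. The 12 fibroblast markers had that order too. Among the freshly isolated libraries the orders differed, with con4 highest for the TLRs and con6 highest for the leukocyte markers. Whether the TLR transcripts came from such cells was not tested.

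**Figure D2:**
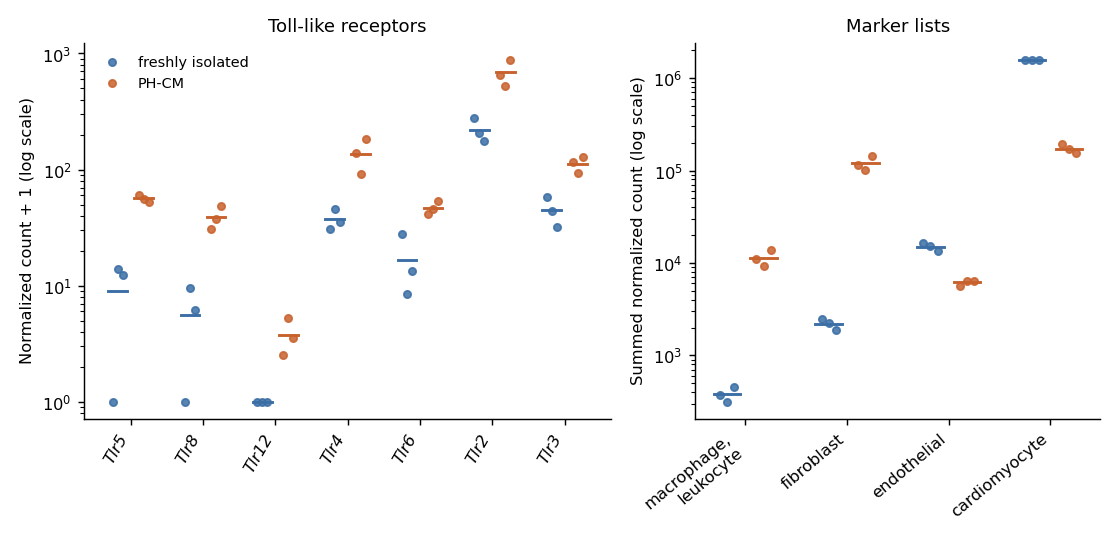
Left, normalized count + 1 (log scale) of each TLR gene in every ARVM library; right, summed normalized count (log scale) of the listed markers of 4 cell types in the same libraries, with a horizontal line for each group's mean. The 7 TLRs summed to 271 to 391 in freshly isolated and 843 to 1344 in PH-CM libraries, while the leukocyte markers summed to 315 to 459 and 9197 to 13863.

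The cytosolic sensor of long double-stranded RNA encoded by Ifih1 (also called MDA5) was the only member of its kind listed. Its normalized count was 349.8, 328 and 409 in freshly isolated ARVM and 471, 559.9 and 591 in PH-CM ARVM. The rise was 1.49-fold, smaller than that of any TLR by its fold change (log2 fold change 0.58, SE 0.13, adjusted p = 0.00401).

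The JAK and STAT genes, which carry the signal from the receptor, moved in both directions and by 2.15-fold at most. Stat2 encodes the STAT partner that is particular to the type I interferon complex. It was at 764, 613 and 717 in freshly isolated ARVM and 1002, 1159.5 and 1053 in PH-CM ARVM (log2 fold change 0.62, SE 0.10, adjusted p = 0.00076). Stat6, which answers mainly to interleukins, was at 397, 386 and 386 in freshly isolated and 759, 754 and 1002 in PH-CM libraries, with PH-CM library ha211 above the other two (log2 fold change 1.09, SE 0.13, adjusted p = 0.000105).

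The other 3 genes of this role were lower. Stat3, which carries signals of the interleukin 6 family and is abundant in heart muscle, was at 9907, 9463 and 9945 in freshly isolated ARVM and 6565, 6063 and 6322 in PH-CM ARVM (log2 fold change -0.63, SE 0.06, adjusted p = 2.44e-05). Stat5b, which carries growth hormone and prolactin signals, was at 864, 818 and 884 in freshly isolated and 702, 731 and 744 in PH-CM libraries (log2 fold change -0.24, SE 0.07, adjusted p = 0.0145). Jak1, the kinase shared by interferon and many cytokine receptors, was at 3573, 3484 and 3755 in freshly isolated and 3185, 3397 and 3206 in PH-CM libraries (log2 fold change -0.14, SE 0.06, adjusted p = 0.0354). Stat3 thus fell by 1.55-fold, while the falls of Stat5b and Jak1 were 1.18-fold and 1.1-fold and close to the spread. Without freshly isolated library con6 the call of Stat5b was lost (adjusted p = 0.0544, with 0.0104 to 0.0544 over the alternatives). That of Jak1 was lost without con4, con6, ha2 or ha211 (adjusted p from 0.0595 to 0.13, with 0.0208 to 0.13 over all alternatives).

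Of the IRF genes, 4 were higher and 2 were lower. Irf7, the factor that amplifies type I interferon production and is itself interferon-induced, was at 464, 485 and 492 in freshly isolated ARVM and 716, 762 and 852 in PH-CM ARVM. The groups were far apart for their spread, and the rise was 1.62-fold (log2 fold change 0.69, SE 0.09, adjusted p = 0.000263). Irf5, which acts downstream of TLRs and is best known from myeloid cells, was at 34.8, 49.3 and 19.6 in freshly isolated and 160.3, 153 and 135 in PH-CM libraries (log2 fold change 2.17, SE 0.35, adjusted p = 0.000608). Irf4, a factor of lymphoid and myeloid cells, was at 0, 0 and 5.17 in freshly isolated and 16.6, 11.2 and 20.3 in PH-CM libraries (log2 fold change 3.18, SE 0.73, adjusted p = 0.00382). Its freshly isolated level rests on 5 reads in library con6, without which the log2 fold change was 4.05.

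The 2 lower IRF genes are the activator and the antagonist first described at the interferon beta promoter. Irf2, mainly a repressor of IRF1 targets, was at 91.8, 73.9 and 99.2 in freshly isolated ARVM and 20.4, 25.9 and 31.3 in PH-CM ARVM (log2 fold change -1.74, SE 0.28, adjusted p = 0.000665). Irf1, the activator, was at 1611, 1733 and 1633 in freshly isolated and 1449, 1508 and 1511 in PH-CM libraries (log2 fold change -0.16, SE 0.06, adjusted p = 0.0327). Irf2 thus fell 3.41-fold, with all PH-CM libraries well below the freshly isolated ones, whereas Irf1 differed by 1.11-fold. The call of Irf1 was lost without freshly isolated library con5 (log2 fold change -0.12, adjusted p = 0.122), without freshly isolated library con6 (adjusted p = 0.0642) and without PH-CM library ha2 (adjusted p = 0.0815), with a range of 0.0209 to 0.122 over all alternatives.

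SOCS proteins block JAK kinases or send receptors for degradation, and most of their genes are switched on by the cytokines they restrain. Socs3, the inhibitor of interleukin 6 family signaling, was at 1902, 2196 and 1998 in freshly isolated ARVM and 679.9, 791 and 746 in PH-CM ARVM (log2 fold change -1.46, SE 0.08, adjusted p = 2.7e-06). Socs2, known as the inhibitor of growth hormone signaling, was at 391, 413 and 325 in freshly isolated and 92.3, 118 and 108 in PH-CM libraries (log2 fold change -1.82, SE 0.18, adjusted p = 3.96e-05). Socs6, which acts on receptor tyrosine kinases, was at 2008, 2093 and 2198 in freshly isolated and 779, 842 and 720.2 in PH-CM libraries (log2 fold change -1.43, SE 0.08, adjusted p = 1.91e-06). These 3 genes fell by 2.75-fold, 3.54-fold and 2.69-fold, with little spread within a group. Socs5 went the other way, from 1158, 970.4 and 1068 to 2026, 2049 and 2246 (log2 fold change 0.98, SE 0.08, adjusted p = 1.8e-05). The ratio of Socs5 to Socs3 within a library, a pair chosen after the values were seen, was 0.609, 0.442 and 0.535 in freshly isolated ARVM con4, con5 and con6 and 2.98, 2.59 and 3.01 in PH-CM ARVM ha2, ha209 and ha211.

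GBP and IRGM proteins are interferon-gamma-induced GTPases, and the GBP proteins attack the membranes around intracellular microbes. Gbp2 was at 4074, 3669.7 and 3679 in freshly isolated ARVM and 1769, 1496 and 1795 in PH-CM ARVM, a 2.26-fold fall (log2 fold change -1.18, SE 0.09, adjusted p = 8.17e-06). Gbp4 was at 242, 209.9 and 229 in freshly isolated and 390.2, 487 and 375 in PH-CM libraries (log2 fold change 0.87, SE 0.15, adjusted p = 0.000784). Gbp5, which promotes inflammasome assembly, was at 2358, 2347 and 2363 in freshly isolated and 2914, 3031 and 3074 in PH-CM libraries (log2 fold change 0.35, SE 0.05, adjusted p = 0.000326). Gbp4 and Gbp5 were thus higher by 1.84-fold and 1.28-fold while Gbp2 fell. Irgm, a GTPase tied to autophagy of microbes, was at 166, 171 and 146 in freshly isolated and 225, 222 and 241 in PH-CM libraries (log2 fold change 0.51, SE 0.15, adjusted p = 0.013). Members of the GBP family are similar in sequence, and how the counting assigned reads shared between them is not given in the sources used here.

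The antiviral effectors moved far in both directions. Of 14 listed, 11 were higher, 10 of them called, and 3 were lower, all called. Their median log2 fold change was 2.37. For all listed ARVM genes, 53.9% were called higher and 43.7% lower.

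Oasl encodes a protein related to the 2-5A synthetases that strengthens RNA sensing. Its normalized count was 136, 187 and 122.9 in freshly isolated ARVM con4, con5 and con6 and 3203, 4397 and 3844 in PH-CM ARVM ha2, ha209 and ha211. The means were 149 ± 34.1 and 3815 ± 598 (SD, n = 3), a 25.6-fold rise (log2 fold change 4.68, SE 0.18, adjusted p = 3.27e-07). Isg15 encodes the ubiquitin-like modifier that interferon induces. It was at 435, 351 and 288 in freshly isolated and 4848, 7029 and 6066 in PH-CM libraries, with means of 358 ± 73.7 and 5981 ± 1093 (SD, n = 3), 16.7-fold apart (log2 fold change 4.06, SE 0.18, adjusted p = 5.95e-07). PH-CM library ha209 was the highest and library ha2 the lowest for both genes.

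Rsad2 encodes viperin, an enzyme that makes a chain-terminating nucleotide against viral polymerases. It was at 979.6, 1295 and 1039 in freshly isolated ARVM and 15104, 17670.2 and 15349.5 in PH-CM ARVM, with means of 1105 ± 168 and 16041 ± 1416 (SD, n = 3). The 14.5-fold rise had a small error (log2 fold change 3.87, SE 0.11, adjusted p = 1.2e-07). Ifi27l2b, one of the small interferon-induced proteins of the Ifi27 family, was at 2233, 2209.8 and 1917 in freshly isolated and 19817, 19434 and 24123 in PH-CM libraries (log2 fold change 3.31, SE 0.10, adjusted p = 1.33e-07). Ifit3, a partner of the proteins that hold back foreign capped RNA, was at 554, 546 and 544 in freshly isolated and 2554, 3616 and 3191 in PH-CM libraries (log2 fold change 2.49, SE 0.12, adjusted p = 9.88e-07). The freshly isolated libraries lay close together for Ifit3, and every PH-CM library was far above them.

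The remaining higher effectors were the 3 Ifitm genes, Isg20, Ifi27 and Oas1i. Ifitm1, Ifitm2 and Ifitm3 encode membrane proteins that hinder viral entry, and their log2 fold changes were 2.61, 2.35 and 2.15, all called. Ifitm3 was at 1583 to 1779 in freshly isolated ARVM and 6403 to 8352 in PH-CM ARVM, and the other 2 had ranges of 408 to 511 and 2449 to 3088 for Ifitm1 and 1053 to 1139 and 4671 to 6583 for Ifitm2. These genes belong to the same family, and how the counting assigned any reads shared between them is not given in the sources used here. Isg20, an RNA exonuclease, was at 83.7 to 122 in freshly isolated and 217 to 231 in PH-CM libraries (log2 fold change 1.14, adjusted p = 0.000893), and Ifi27 was at 6316 to 7222 in freshly isolated and 8656 to 12167 in PH-CM libraries (log2 fold change 0.63, adjusted p = 0.00189).

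Oas1i, one of several Oas1 copies of the rat, was at 0 to 26.9 in freshly isolated ARVM and 37.1 to 42.3 in PH-CM ARVM and was not called (log2 fold change 2.38, SE 1.12, adjusted p = 0.0674). It had 0 reads in freshly isolated library con5. The call depended on the libraries, since it was made without con4 (log2 fold change 3.31, adjusted p = 0.0206) and without con5 (log2 fold change 0.91, adjusted p = 0.0424), with 0.0156 to 0.149 over the alternatives.

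The 3 lower effectors are among the best known interferon-induced genes. Mx1 and Mx2 encode dynamin-like GTPases that block viral nucleocapsids. Mx1 was at 179, 167 and 135 in freshly isolated ARVM con4, con5 and con6 and 6.81, 11.2 and 24.5 in PH-CM ARVM ha2, ha209 and ha211, with means of 160.4 ± 22.5 and 14.2 ± 9.23 (SD, n = 3). It was 11.3-fold lower in PH-CM ARVM (log2 fold change -3.57, SE 0.44, adjusted p = 0.000152), with library ha211 the highest of the PH-CM libraries. Mx2 was at 411, 389 and 325 in freshly isolated and 216, 123.4 and 197 in PH-CM libraries, 2.1-fold lower (log2 fold change -1.10, SE 0.23, adjusted p = 0.00235). Usp18, which removes Isg15 from proteins and shuts off the interferon receptor, was at 237, 245 and 288 in freshly isolated and 157, 192 and 209.04 in PH-CM libraries (log2 fold change -0.47, SE 0.17, adjusted p = 0.0285). The call of Usp18 was lost without freshly isolated library con6 (log2 fold change -0.38, adjusted p = 0.0934) and without PH-CM library ha2 (log2 fold change -0.35, adjusted p = 0.0892), with a range of 0.0188 to 0.0934 over the alternatives.

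Rsad2 and Mx1 moved in opposite directions inside the same libraries, which leaves library scaling out of the comparison. Their ratio of normalized counts, a pair chosen after the values were seen, was 5.48, 7.75 and 7.68 in freshly isolated ARVM con4, con5 and con6 and 2219, 1575 and 625.4 in PH-CM ARVM ha2, ha209 and ha211. The ratio of Isg15 to Usp18, chosen in the same way, was 1.83, 1.43 and 1 in the former and 30.8, 36.5 and 29 in the latter. In both ratios every PH-CM library was above every freshly isolated library by more than 10 times.

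**Figure D3:**
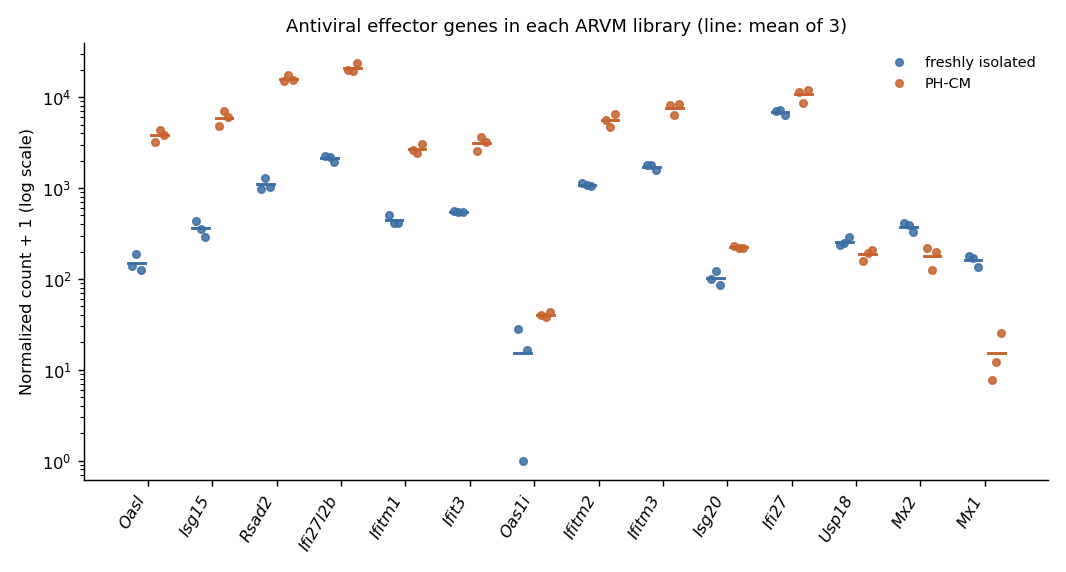
Normalized count + 1 (log scale) of the 14 antiviral effector genes in each freshly isolated (blue) and PH-CM (orange) ARVM library, with a horizontal line for the mean of the 3 libraries of a group. Genes are ordered by fold change, from Oasl, at 122.9 to 187 against 3203 to 4397, to Mx1, at 135 to 179 against 6.81 to 24.5.

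Because effectors rose and fell in the same libraries, their promoters were read for the element that interferon-activated STAT complexes and the IRF proteins bind. RefSeq windows (rat build GRCr8, 250 bases before to 50 after the start) were found by symbol for 32 of the 43 members. The core of the interferon-stimulated response element (ISRE), GAAANNGAA on either strand, was in 14 of these 32 windows (43.8%), in 7.47% of the windows of listed ARVM genes and in 9.71% of all rat windows. It was in 13 of 24 windows of higher members (54.2%), in 1 of 8 of lower members (12.5%), and in 7 of 9 of effectors (77.8%). Of the lower effectors only Mx1 had a window, while Mx2 and Usp18 had none. The other lower members with a window had other roles, so direction and role cannot be told apart in these shares. The gamma-activated site core TTCNNNGAA was in 3 of 32 windows (9.38%), against 8.87% of all windows. These figures describe letters and not bound sites, and no test was run on them.

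The 150 bases before the start of 5 genes are shown, with matches to the ISRE core in capitals, because these genes differ in both letters and direction. Ifit3 (chr1:241527176-241527325, plus strand) and Rsad2 (chr6:48788121-48788270, minus strand) rose and Gbp2 (chr2:234005577-234005726, plus strand) fell, and all have the core. Oasl (chr12:47356293-47356442, minus strand), which rose, and Mx1 (chr11:50294607-50294756, minus strand), which fell, do not have these letters in the window.
Ifit3: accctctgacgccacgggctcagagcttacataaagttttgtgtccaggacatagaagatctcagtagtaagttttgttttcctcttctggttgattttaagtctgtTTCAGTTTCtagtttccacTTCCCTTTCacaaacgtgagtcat
Rsad2: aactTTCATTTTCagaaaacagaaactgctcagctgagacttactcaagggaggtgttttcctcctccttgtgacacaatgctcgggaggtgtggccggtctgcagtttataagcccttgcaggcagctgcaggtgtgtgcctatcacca
Gbp2: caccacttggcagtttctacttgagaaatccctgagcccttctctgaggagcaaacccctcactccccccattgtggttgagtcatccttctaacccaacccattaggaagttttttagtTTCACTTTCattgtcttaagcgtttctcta
Oasl: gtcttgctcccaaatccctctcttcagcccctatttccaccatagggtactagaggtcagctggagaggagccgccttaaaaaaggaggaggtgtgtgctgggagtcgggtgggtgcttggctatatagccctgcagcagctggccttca
Mx1: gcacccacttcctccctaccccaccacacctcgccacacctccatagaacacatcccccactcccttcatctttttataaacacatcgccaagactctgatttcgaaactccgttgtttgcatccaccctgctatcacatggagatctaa

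Other genes of the pathway, taken from 3 lists, moved in both directions in ARVM. Of 31 adaptors, kinases and regulators, 16 were listed, of which 10 were called higher and 6 lower. All listed ARVM genes moved both ways too, with 53.9% called higher and 43.7% lower. Ptpn6, a phosphatase of hematopoietic cells, was at 7.91, 0 and 8.26 in freshly isolated ARVM and 109.7, 76.8 and 111 in PH-CM ARVM (log2 fold change 4.50, SE 0.83, adjusted p = 0.00124). Ticam2, an adaptor of Tlr4, was at 12.7, 9.64 and 0 in freshly isolated and 49.9, 44 and 44 in PH-CM libraries (log2 fold change 3.16, SE 0.92, adjusted p = 0.0111), and Cd14, the co-receptor of Tlr4 and also one of the leukocyte markers above, was at 28.5, 48.2 and 67.1 in freshly isolated and 304, 214 and 291 in PH-CM libraries (log2 fold change 2.53, SE 0.33, adjusted p = 0.000209). These 3 had low counts in freshly isolated ARVM, and without the library at 0 the log2 fold change was 1.96 for Ticam2 without con6 and 3.44 for Ptpn6 without con5. The genes called lower were led by Ptpn11, a widely expressed phosphatase, at 7867, 7417 and 7761 in freshly isolated and 3988, 4067 and 4067 in PH-CM libraries (log2 fold change -0.93, SE 0.05, adjusted p = 1.89e-06). Traf3, at 969, 939 and 1006 in freshly isolated and 534, 590.1 and 566 in PH-CM libraries (log2 fold change -0.79, SE 0.08, adjusted p = 4.7e-05), and Tbk1, at 1089, 1208 and 1102 in freshly isolated and 712, 742 and 768 in PH-CM libraries (log2 fold change -0.61, SE 0.08, adjusted p = 0.000148), encode an adaptor and a kinase that lead from sensors to interferon production. Ikbke, another kinase gene of this list, was called higher. It was at 80.7, 84.6 and 56.8 in freshly isolated and 297, 319 and 312 in PH-CM libraries (log2 fold change 2.07, SE 0.21, adjusted p = 4.71e-05).

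Of 32 further interferon-induced effectors, 17 were listed, 10 of them called higher and 5 lower. The shares over all listed ARVM genes were 53.9% higher and 43.7% lower. The chemokine pair Cxcl10 and Cxcl9, which share the receptor of activated T cells, moved in opposite directions. Cxcl11 of the same list was called higher (log2 fold change 0.62, SE 0.11, adjusted p = 0.000964). Cxcl10 was at 253, 242 and 238 in freshly isolated ARVM and 4066, 5800.3 and 4300.1 in PH-CM ARVM (log2 fold change 4.25, SE 0.13, adjusted p = 1.39e-07). Cxcl9, known as the more interferon-gamma-dependent of the pair, was at 250.05, 176 and 218 in freshly isolated and 5.29, 8.63 and 6.77 in PH-CM libraries (log2 fold change -4.78, SE 0.30, adjusted p = 3.99e-06). No library of either group overlapped with the other group for these genes, which was so for 100% of listed ARVM genes.

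Other effectors of that list changed less than Cxcl10 and Cxcl9. Lgals9 (galectin 9) was at 159.8, 174 and 259 in freshly isolated and 792, 815 and 995 in PH-CM libraries (log2 fold change 2.15, SE 0.20, adjusted p = 2.85e-05). Trafd1, an interferon-induced brake on TLR signaling, was at 2713, 3175 and 3406 in freshly isolated and 1647, 1843 and 1770.5 in PH-CM libraries (log2 fold change -0.82, SE 0.09, adjusted p = 8.98e-05). Helz2, a helicase and coactivator, was at 609, 528 and 582 in freshly isolated and 321, 393 and 432 in PH-CM libraries (log2 fold change -0.59, SE 0.13, adjusted p = 0.00355). Lgals9 thus rose while Trafd1 and Helz2 fell.

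Class I antigen processing, an arm that interferon gamma raises in most cells, had 7 of 10 genes listed, 6 called higher and 1 lower. Calls over all listed ARVM genes were 53.9% higher and 43.7% lower. The immunoproteasome subunit Psmb8 was at 415, 573 and 408 in freshly isolated ARVM and 1015, 865 and 1135 in PH-CM ARVM (log2 fold change 1.12, SE 0.16, adjusted p = 0.00031). Psmb10 and Psmb9, the other catalytic subunits, had log2 fold changes of 0.73 and 0.69. Psme1, a subunit of the proteasome activator, was the gene called lower, at 10912, 10429 and 11119.5 in freshly isolated and 9614, 9726 and 9049.6 in PH-CM libraries (log2 fold change -0.19, SE 0.06, adjusted p = 0.0125). The 3 catalytic subunits were thus higher together, and the fall of Psme1 was small.

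All 8 listed interferon response genes were lower in PH Cfib than in CO Cfib, and all 8 were called. Of all listed Cfib genes, 39.4% were called lower and 58.2% higher. The median log2 fold change of the members was -0.80, against 0.33 for all listed genes. Rescaling by the median of ratios shifted the Cfib log2 fold changes by a median of -0.27. The members were all lower under either scaling, but a downward shift could not have made them higher, so this is no check of their direction.

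GBP5 and GBP4 fell most on the log2(value + 1) scale, while by the ratio of means RSAD2 lay between them. The length-scaled signal of GBP5 was 12, 9.98 and 14.4 in CO Cfib 1, 2 and 3 and 2.61, 3.23 and 3.54 in PH Cfib 1, 2 and 3, and the means of 12.1 ± 2.23 and 3.13 ± 0.476 (SD, n = 3) were 3.88-fold apart (log2 fold change -1.66, SE 0.15, adjusted p = 0.000113). For GBP4 the signal was 16.4, 14.7 and 10.8 and 5.01, 4.93 and 6.25 (log2 fold change -1.21, SE 0.17, adjusted p = 0.00061). CO library 3 was the highest for GBP5 and the lowest for GBP4, and for both genes the PH libraries lay within a narrow band below.

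IFIT3 and RSAD2, the antiviral effectors of the list, were lower as well. IFIT3 was at 11.9, 10.3 and 15 in CO Cfib and 4.46, 5.25 and 6.33 in PH Cfib (log2 fold change -1.07, SE 0.16, adjusted p = 0.000986). RSAD2 was at 2.57, 2.76 and 2.69 in CO and 1.09, 0.613 and 1.37 in PH libraries (log2 fold change -0.88, SE 0.15, adjusted p = 0.00142). By the ratio of means the fall was 2.32-fold for IFIT3 and 2.61-fold for RSAD2, against 2.59-fold for GBP4, and the level of RSAD2 was near the low end of the scale. DHX58, the regulatory RNA helicase also called LGP2, was at 11, 11.3 and 8.93 in CO and 5.48, 4.67 and 7.73 in PH libraries (log2 fold change -0.73, SE 0.18, adjusted p = 0.00676). TLR2 was at 18, 14.6 and 17.7 in CO and 9.71, 10.8 and 10.2 in PH libraries (log2 fold change -0.66, SE 0.10, adjusted p = 0.00088). All PH libraries of these 4 genes lay below all CO libraries, and the groups were apart for 100% of listed Cfib genes.

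The other 2 members encode transcription factors. IRF1 had the highest length-scaled signal of the 8 members, with 161, 133 and 180.1 in CO Cfib and 76.7, 115 and 101 in PH Cfib (log2 fold change -0.69, SE 0.18, adjusted p = 0.00806). STAT4, which acts downstream of interleukin 12 and type I interferon in lymphocytes, was at 1.09, 1.19 and 0.881 in CO and 0.834, 0.412 and 0.503 in PH libraries (log2 fold change -0.38, SE 0.12, adjusted p = 0.0192). STAT4 was the lowest member, and PH library 1 came close to CO library 3. Its call was lost without CO library 1 or 2 or PH library 2 or 3 (adjusted p from 0.0524 to 0.0673, with 0.00634 to 0.0673 over the alternatives).

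**Figure D4:**
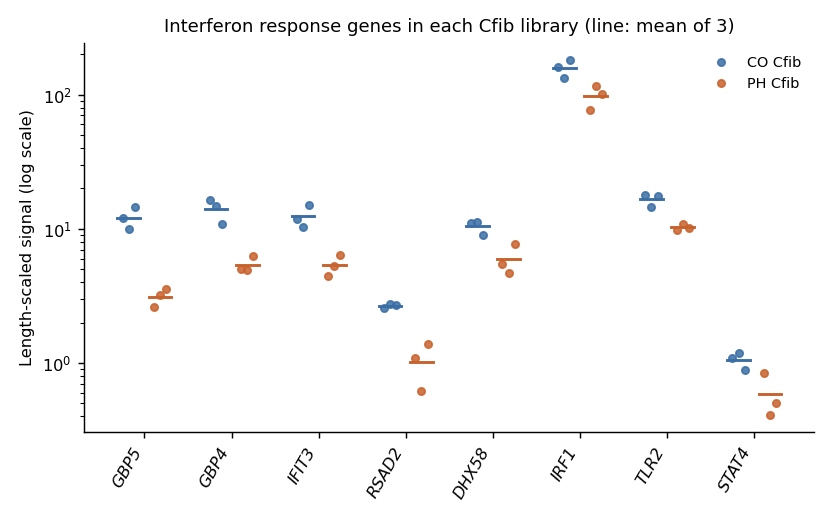
Length-scaled signal (log scale) of the 8 interferon response genes in each CO (blue) and PH (orange) Cfib library, with a horizontal line for the mean of the 3 libraries of a group. The groups are apart for 100% of listed Cfib genes, and for these 8 all PH libraries lie below all CO libraries. Genes run from GBP5, at 9.98 to 14.4 against 2.61 to 3.54, to STAT4, at 0.881 to 1.19 against 0.412 to 0.834.

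Of the 18 leukocyte markers 7 were listed in Cfib, 6 of them higher in PH Cfib and CD14 lower, and their summed signal was 12.9 to 15.7 in CO Cfib and 20 to 21.8 in PH Cfib, with C1QA and C1QB at 0 in all CO libraries. The 5 listed fibroblast markers of 12 were all higher, with sums of 2253 to 3160 and 7306 to 7634, and no cardiomyocyte marker was listed. Of 12 endothelial markers 2 were listed, with sums of 78.7 to 85 and 101 to 106, and ESAM was lower with the members (log2 fold change -1.08, adjusted p = 0.000611) while ENG was higher (log2 fold change 0.42, adjusted p = 0.000823, but 0.13 and 0.0851 after median-of-ratios scaling, the highest adjusted p over its alternatives). The cultures were fibroblasts in both groups, and the study reports more periostin, encoded by the fibroblast marker POSTN, in PH Cfib. Changed cell make-up and changed expression per cell cannot be told apart in these sums, and the part of either in the lower interferon response genes was not tested.

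The pathway lists in Cfib were short and mostly lower, while 39.4% of all listed Cfib genes were called lower and 58.2% higher. Of 31 adaptors, kinases and regulators 5 were listed, with IRAK1 and PIAS3 called higher and CD14, NFKBIA and TBK1 called lower. CD14 was at 6.96, 8.67 and 5.74 in CO Cfib and 2.03, 1.84 and 2.16 in PH Cfib (log2 fold change -1.42, SE 0.14, adjusted p = 0.000164). NFKBIA, the inhibitor of NF-kB, was at 123.3, 135 and 168 in CO and 66.7, 103 and 83.6 in PH libraries (log2 fold change -0.75, SE 0.18, adjusted p = 0.00671). The log2 fold changes of TBK1, IRAK1 and PIAS3 were -0.40, 0.58 and 0.45, and the median-of-ratios scaling left 1 of the last pair called.

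Of 32 further effectors 4 were listed, and all were called lower, against 39.4% of all listed Cfib genes. LGALS9 was at 53.8, 38.8 and 52.9 in CO Cfib and 8.27, 6.99 and 10.1 in PH Cfib (log2 fold change -2.39, SE 0.17, adjusted p = 3.89e-05), a fall larger than that of any member. RTP4, an interferon-induced antiviral protein, was at 64.8, 53.2 and 37.8 in CO and 15.7, 18.1 and 20.4 in PH libraries (log2 fold change -1.45, SE 0.20, adjusted p = 0.000632), and TRIM21, an intracellular antibody receptor, was at 25.2, 22.6 and 19.7 in CO and 13.7, 14.6 and 15.3 in PH libraries (log2 fold change -0.59, SE 0.10, adjusted p = 0.00157). Of 10 class I processing genes 2 were listed, the peptide transporter subunits TAP1 and TAP2. TAP1 was at 41.3, 42.3 and 38.9 in CO and 14.1, 17.4 and 17.6 in PH libraries (log2 fold change -1.28, SE 0.10, adjusted p = 5.2e-05), and TAP2 was at 52.9, 53.8 and 71.8 in CO and 25.9, 28.6 and 25.6 in PH libraries (log2 fold change -1.11, SE 0.13, adjusted p = 0.000283). Both subunits fell by more than their spread between libraries.

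Of the members, 6 were listed in both tables, 75% of the Cfib members and 14% of the ARVM members. Irf1 was lower in both, with log2 fold changes of -0.16 in ARVM and -0.69 in Cfib. Rsad2, Ifit3, Tlr2, Gbp4 and Gbp5 were higher in PH-CM ARVM than in freshly isolated ARVM and lower in PH Cfib than in CO Cfib. The contrasts come from different species, cells and units and were not tested against each other. The medium on the ARVM came from PH Cfib, and whether the sequenced Cfib cultures supplied it is not given in the sources used here.

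**Figure D5:**
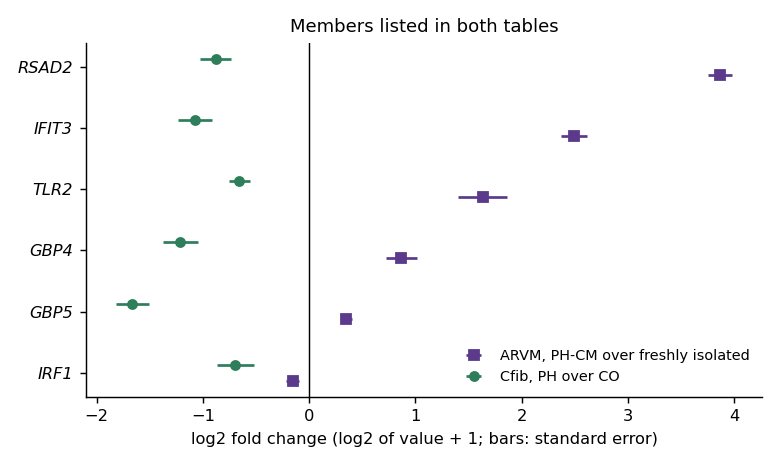
Log2 fold change (log2 of value + 1) of the 6 interferon response genes listed in both tables, for PH-CM over freshly isolated ARVM (squares) and PH over CO Cfib (circles), with bars for the standard error of each limma fit. RSAD2, IFIT3, TLR2, GBP4 and GBP5 lie on opposite sides of 0 in the 2 tables, and IRF1 lies below 0 in both.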

How the data were processed

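Interferon response genes were studied in RNA sequencing of 12 libraries, 3 in each of 4 groups. Per the study's methods, RNA was ribosome-depleted, sequenced on an Illumina instrument and aligned with HISAT2 and StringTie to rn6 (rat) or bosTau8 (bovine), versions and strand setting not given in the sources used here. The authors normalized count matrices with DESeq2, kept genes above an expression value of 1 in a condition and deposited genes selected by p-value only. Each ARVM value deposited is a signal, namely the counts over the library's size factor, and 100% of them gave whole reads within 0.01. For Cfib the deposited signal carries a scaling for gene length and depth, and whether it is FPKM or TPM was not settled. Adjustments therefore rest on selected genes.

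Each contrast was fitted in R 4.3.3 by limma 3.58.1 to log2(value + 1) of all genes of a table, using eBayes with its trend option, and p-values adjusted by Benjamini-Hochberg were called under 0.05. Alternatives were pseudocounts of 0.1 and 10, a minimum mean (50 for ARVM, 5 for Cfib), median-of-ratios scaling, eBayes with no trend, an absolute log2 fold change of at least 1, each library left out, a replicate block (Cfib) and, on ARVM reads, edgeR 4.0.16 and DESeq2 1.42.0. All tests were two-sided. The models were tested on simulated data in which most genes were unchanged. The deposited genes were all selected for a difference, a setting that the simulation does not cover. With 3 libraries against 3, an exact permutation test cannot go below p = 0.1 and was not used. For Cfib the study states that fibroblasts from 3 animals per group were sequenced, though the labels do not name the animals. For ARVM neither source says that libraries came from separate cultures or animals. The p-values measure the spread between these libraries, which in ARVM may be technical. Counting floors (3 reads) cover only the counting error of the freshly isolated group. Libraries were compared before averaging.

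Values of every library are given for members in the Cfib table, for members in both tables and, in ARVM, for up to 4 members per role and direction with the largest absolute log2 fold change whose higher group had a mean of 10 or more. Each pathway list gives up to 3 called genes per direction and table, by the same order, with a mean of at least 10 (ARVM) or 1 (Cfib). Cxcl11 and Ikbke in ARVM are given in addition. Some genes that these rules take are not reported here, though they stay in the counts. The members, gene lists and tests were chosen with earlier results of these data known. Promoter windows are RefSeq sequences matched by symbol, and all 43 ARVM members were found in RefSeq by symbol. Figures and summaries used Python 3.11.15 with pandas 2.3.3 and numpy 2.4.6.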

Additional observations from a re-analysis of the deposited data

Results flagged for a closer look

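In 5 genes listed in both tables, all libraries of the treated group moved one way in ARVM and the opposite way in Cfib, and the difference between the tables was not tested. The log2 fold changes in PH-CM ARVM and in PH Cfib were 3.87 and -0.88 for Rsad2, 2.49 and -1.07 for Ifit3, 1.63 and -0.66 for Tlr2, 0.87 and -1.21 for Gbp4, and 0.35 and -1.66 for Gbp5. Both tables hold genes selected for a difference, so that each of these genes had to be separated in each table, and the direction alone was free. The comparisons differ in species, in cell type, in the unit of the values and in what the control group is.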

How the results depend on the processing

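No log2 fold change of the 51 members in the 2 tables changed direction under the alternatives that fitted it. Apart from the minimum fold change, given below, these fits changed no call for 43 of the members. The call of Oas1i was gained and those of Ifnb1, Tlr12, Stat5b, Irf1, Jak1, Usp18 and STAT4 were lost under some of these fits, with values for single libraries beside each gene above. With a pseudocount of 10, Tlr12 was not called (adjusted p = 0.0662, with 0.000176 to 0.172 over its alternatives) and Oas1i was (adjusted p = 0.0156). The ARVM members called lower were 13 in the main test and 9 to 13 as single libraries were left out, 9 without freshly isolated library con6, and those called higher were 29 to 30. In Cfib 7 to 8 members were called lower as single libraries were left out. With a required absolute log2 fold change of at least 1, 7 members were called lower in ARVM (13 without it) and 3 in Cfib (8 without it). Members called higher in ARVM were then 21 (29 without it). Under the same requirement the pathway genes called were 13 higher and 1 lower in ARVM (26 and 12 without it) and 0 higher and 5 lower in Cfib (2 and 9 without it). The median of ratios left 1 pathway gene called higher in Cfib. By construction a minimum fold change removes calls.

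Library numbers are shared between the Cfib groups. The deviations of libraries of equal number correlated at 0.258, 0.0312 and 0.259, and those of unequal number at -0.2455 to 0.102. Not every equal pair was above 0.1 and no label says what the number marks, so libraries were not paired in the main test, and whether the numbers mark shared batches was not settled. With a replicate block, 8 members were called lower in Cfib, as without it. Depth limits Ifnb1, Tlr12 and Irf4 in ARVM, which rest on a few reads.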
